A study of Rattus norvegicus with 6 samples.

Results

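The 10 genes described here are regulators of the mesenchymal state (Prrx1, Twist1, Twist2, Snai1, Snai2 and Zeb1) and cell-surface proteins used to recognise fibroblasts and mural cells (Pdgfra, Pdgfrb, Thy1 and Fap). They were chosen by name, with earlier results of these data known, and all 10 were found among the 16849 genes of a count table. The table was made from RNA of RSC96, an immortalised line of rat Schwann cells whose genotype is labelled wild type. In the first group, called PVDF@PDA, the cells were exposed for 24 hours under hypoxia to medium conditioned by macrophages together with the piezoelectric material PVDF@PDA. The next group, called PCL@PDA, had the same hypoxia and conditioned medium with the material PCL@PDA, which the labels describe as not piezoelectric. The last group is called Control, and its labels do not say whether it received conditioned medium. Each group had 2 libraries, numbered 1 and 3 as in the labels, which place number 1 of every group in batch 1 and number 3 in batch 3. Against Control, each material group differs in both hypoxia and material, and possibly in conditioned medium, and these cannot be told apart.

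Mesenchymal cells are loosely attached, migratory cells that make collagen-rich matrix, and cells of other lineages can take on some of their traits during development, wound repair and nerve injury. Twist, Snail and Zeb proteins are transcription factors that bind short DNA words called E-boxes and repress junction genes such as the gene of E-cadherin, whereas Prrx1 is a homeobox factor of embryonic mesenchyme and of adult fibroblasts. Pdgfra and Pdgfrb encode the receptor tyrosine kinases for the platelet-derived growth factors (PDGF), which drive the division and migration of fibroblasts and pericytes.

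The libraries held between 32760123 and 35389307 counts, so that 3 counts corresponded to at most 0.0911 CPM, the unit used below for counts scaled to library depth. The largest spread within a group was in PCL@PDA, whose replicate 3 stood apart on the second principal component (-28.5, against 6.09 for PCL@PDA replicate 1), so results are also given without it. The Control libraries, shared by both comparisons with Control, also lay apart on that component (13.7 for replicate 1 and -13.6 for replicate 3). Several defining markers were nearly absent. The fibroblast matrix gene Dcn had at most 1 count in any library and Postn at most 6, whereas Col1a2 had 19907 to 23394. Among Schwann cell markers, Cdh19 had at most 4 counts in any library, whereas Pmp22 had 1396 to 1938 and Sox2 had 1630 to 2164. The pan-leukocyte gene Ptprc had at most 1 count in any library, and the 11 measured macrophage markers summed to 8.50 and 9.08 CPM in PVDF@PDA, 9.0 and 7.44 CPM in PCL@PDA, and 7.56 and 7.98 CPM in Control. Much of this sum was Cd14, at 4.95 and 5.05 CPM in PVDF@PDA, 4.51 and 4.79 CPM in PCL@PDA, and 5.91 and 6.11 CPM in Control. The summed level of 23 other fibroblast markers was 1738 to 1742 CPM in PVDF@PDA and 1682 to 1694 CPM in PCL@PDA, against 1871 to 1872 CPM in Control, and its part in the differences below was not tested. Most of this sum came from Col1a2, Pdpn, Fbn1 and Ddr2 (605, 381, 367 and 295 CPM in PVDF@PDA replicate 1). In every material library Col1a2, Fbn1 and Ddr2 lay below both Control libraries and Pdpn lay above them. In bulk RNA of this kind, fewer cells of a type and less RNA per cell cannot be told apart.

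Prrx1 was lower in both material groups, Pdgfra was higher, and Twist1 was lower by a smaller amount. The sequences shown are the 250 bases before the starts set by the promoter entries of these genes. They are RefSeq sequences of the GRCr8 build, read 5′ to 3′ on the strand of each gene, and not of the build named in the submitters' processing notes. Capitals mark every match, read on both strands, to the E-box CANNTG, whose forms include the motif CAGGTG, or to the hypoxia response cores, spelled ACGTG in one form and GCGTG in the other. A core on the opposite strand therefore appears as CACGT for the first form, and would appear as CACGC for the other. The Prrx1 window lies at chr13:78204074-78204323 on the minus strand, the Pdgfra window at chr14:33408517-33408766 on the minus strand and the Twist1 window at chr6:56402059-56402308 on the plus strand. The Prrx1 window lies wholly within the annotated span of its gene (chr13:78136783-78205379). It therefore does not show the sequence before the outer end of that span. The Pdgfra window lies partly within the span of its gene (chr14:33360027-33408604).
Prrx1: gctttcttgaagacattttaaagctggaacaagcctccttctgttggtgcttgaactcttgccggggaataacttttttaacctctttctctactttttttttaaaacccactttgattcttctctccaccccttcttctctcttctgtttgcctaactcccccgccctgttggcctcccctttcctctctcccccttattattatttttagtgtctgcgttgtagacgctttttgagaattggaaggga
Pdgfra: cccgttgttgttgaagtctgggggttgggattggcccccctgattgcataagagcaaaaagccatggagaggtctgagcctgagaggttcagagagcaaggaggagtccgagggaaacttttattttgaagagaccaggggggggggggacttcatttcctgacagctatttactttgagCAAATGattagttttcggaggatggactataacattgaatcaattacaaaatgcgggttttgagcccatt
Twist1: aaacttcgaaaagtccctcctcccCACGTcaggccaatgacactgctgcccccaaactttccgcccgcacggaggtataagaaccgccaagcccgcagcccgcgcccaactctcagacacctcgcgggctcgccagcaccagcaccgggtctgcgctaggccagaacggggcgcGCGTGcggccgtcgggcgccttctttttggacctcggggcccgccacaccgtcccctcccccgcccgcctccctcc
The Prrx1 window holds none of these letters, the Pdgfra window holds 1 E-box, 70 bases before the start, and the Twist1 window holds ACGTG 226 bases and GCGTG 76 bases before the start. Among the equally long windows of 33469 promoters, 65.5% hold CANNTG, 16.6% hold ACGTG and 25.9% hold GCGTG. A promoter entry was at hand for 7 of the 10 genes, and not for Thy1, Snai2 or Pdgfrb. Among these windows, GCGTG was also held by those of Twist2, Snai1 and Fap, and CANNTG also by those of Snai1, Zeb1 and Fap.

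Snai and Zeb factors prefer the E-box CAGGTG, which 15.9% of all windows hold. It was found in the windows of 2 of the 7 genes, those of Snai1 and Zeb1, which are themselves such factors. The stretches of 24 bases that hold it lie at chr3:176667325-176667348 on the plus strand (Snai1, 142 bases before the start) and at chr17:56810734-56810757 on the minus strand (Zeb1, 95 bases before the start), with the E-box in capitals.
Snai1: gcccaggcgCACCTGctctgatcc
Zeb1: gtcgtaaacCAGGTGcggtgggga
The Zeb1 window lies wholly within the annotated span of its gene (chr17:56644397-56811155). These matches describe the letters of the windows, and binding was not measured.

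Per unit of transcript length, the order of the 10 genes was led by Thy1, which encodes a glycolipid-anchored surface protein of fibroblasts and neurons. Levels on this scale are in FPKM, a read count divided by gene length and library depth, which the deposited files give for every library. Thy1 had 70.8 and 73.8 FPKM in PVDF@PDA, 73.1 and 78.4 FPKM in PCL@PDA, and 65.1 and 70.3 FPKM in Control. Prrx1 followed in Control at 37.3 and 38.4 FPKM, above Twist1 at 24.8 and 26.4 FPKM. In PVDF@PDA, Prrx1 at 22.7 and 23.7 FPKM stood just above Twist1 at 21.5 and 22.6 FPKM, and Twist1 overlapped Snai2 at 20.7 and 22.4 FPKM. In PCL@PDA the same 3 genes came in the order Snai2, Twist1 and Prrx1, and neighbours in that order overlapped. Zeb1 had 15.5 to 16.7 FPKM over the 6 libraries. Below it stood Pdgfra at 2.41 to 4.32 FPKM, Twist2 at 0.918 to 2.97 FPKM, Snai1 at 1.32 to 2.48 FPKM and Pdgfrb at 0.643 to 1.5 FPKM. Fap, which encodes the surface protease fibroblast activation protein, was last with at most 0.0568 FPKM.

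**Figure D1:**
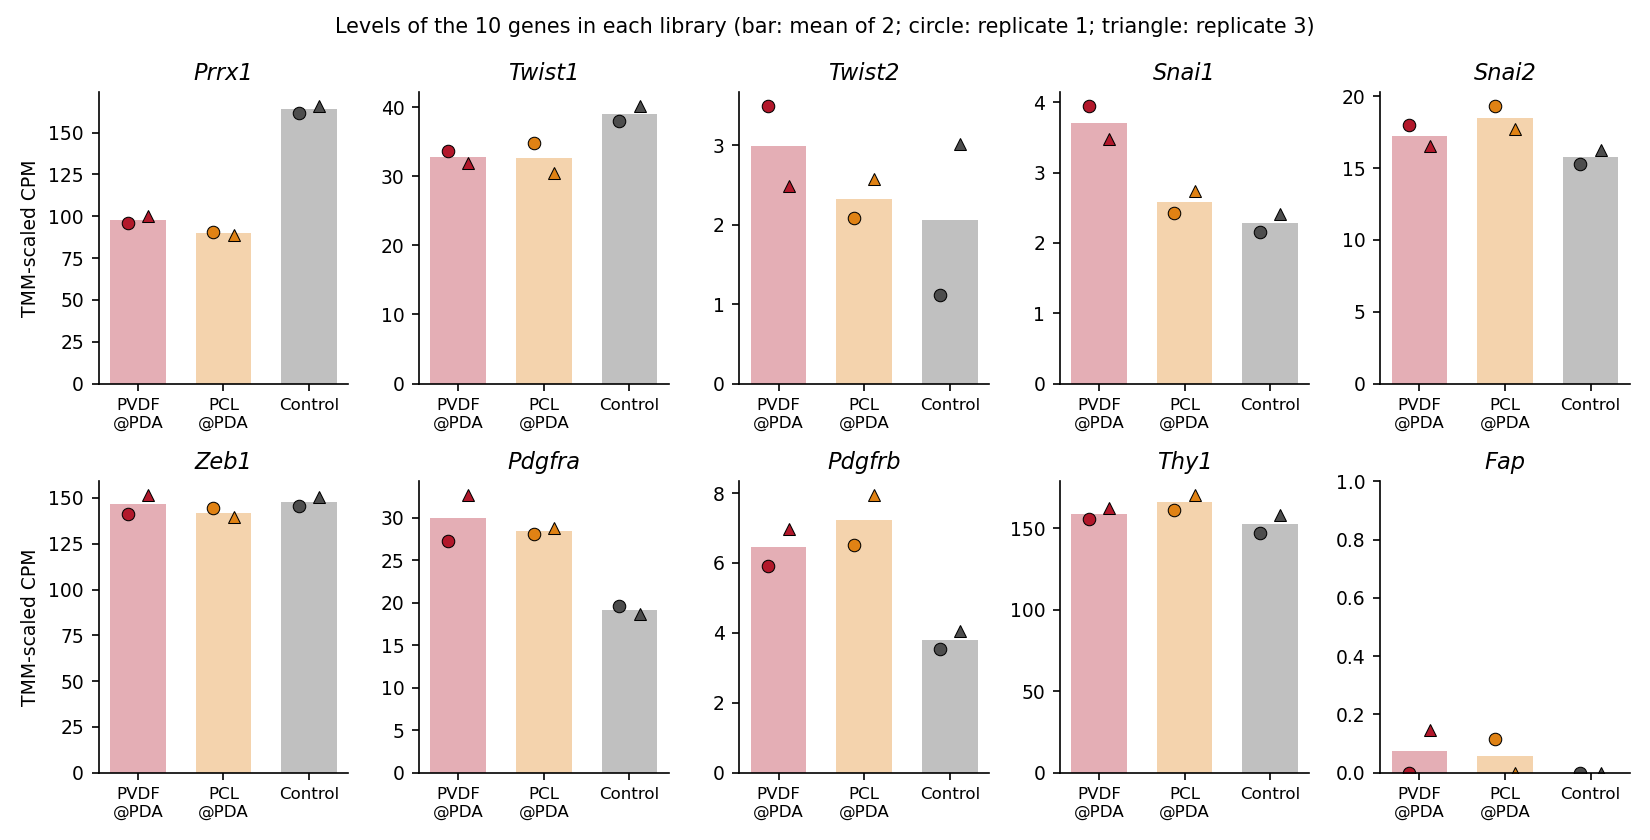
TMM-scaled CPM of each of the 10 genes (vertical axes, each from 0) in PVDF@PDA, PCL@PDA and Control; bars are means of 2 libraries, circles are replicate 1 and triangles replicate 3. Prrx1 lies between 88.8 and 99.9 CPM in the 4 material libraries, below both Control libraries, whereas Pdgfra lies between 27.3 and 32.6 CPM in the 4 material libraries, above both Control libraries.

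Prrx1 had the largest count difference of the 10 genes and was lower in both material groups. It had 3161 and 3422 counts in PVDF@PDA and 3138 and 3041 counts in PCL@PDA, against 5399 and 5785 counts in Control. Scaled to depth by the trimmed mean of M values (TMM), this was 98.0 ± 2.79 CPM in PVDF@PDA, 89.8 ± 1.42 CPM in PCL@PDA and 164 ± 2.87 CPM in Control (SD, n = 2 each). The groups did not overlap, and the gap to Control was many times the spread within any group. With 2 libraries per group, groups can also separate for genes that do not differ. The share of all genes that separate is not given here, so separation alone is not read as a difference for any gene. Prrx1 fell to 0.597-fold of Control in PVDF@PDA (log2 fold change -0.74 ± 0.06 SE, adjusted p = 4.85e-14, edgeR's quasi-likelihood test with Benjamini-Hochberg adjustment over 13018 genes). It fell to 0.548-fold of Control in PCL@PDA (log2 fold change -0.87 ± 0.06 SE, adjusted p = 1.23e-16, edgeR). Within batches 1 and 3 the log2 difference was -0.75 and -0.73 for PVDF@PDA and -0.83 and -0.90 for PCL@PDA. Without PCL@PDA replicate 3 it was -0.86 for PCL@PDA. Of the 13018 genes tested, 7.24% differed from Control by at least as much as Prrx1 in PVDF@PDA and 5.57% did in PCL@PDA, in either direction. Both comparisons use the same Control libraries, here and throughout. The Prrx1 locus overlaps a pair of long non-coding RNAs in the GRCr8 annotation, and whether counting used the strand is not given in the sources used here.

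Twist1, a basic helix-loop-helix factor, was lower in the material groups by a small margin. It had 33.6 and 31.9 CPM in PVDF@PDA and 34.9 and 30.4 CPM in PCL@PDA, against 37.9 and 40.2 CPM in Control. All 4 material libraries lay below both Control libraries. Twist1 fell in PCL@PDA (log2 fold change -0.26 ± 0.09 SE, adjusted p = 0.0410, edgeR). The same difference in PVDF@PDA missed the threshold of 0.05 (-0.25 ± 0.09 SE, adjusted p = 0.0569, edgeR), and passed it with the batch as a term of the model (adjusted p = 0.0333). Within batches 1 and 3 the log2 difference was -0.17 and -0.33 for PVDF@PDA and -0.12 and -0.40 for PCL@PDA. The call in PCL@PDA was lost without PCL@PDA replicate 3 (-0.17, adjusted p = 0.315), without Control replicate 1 (adjusted p = 0.0924) or without Control replicate 3 (adjusted p = 0.247), and the value in PVDF@PDA passed with either PCL@PDA library left out (adjusted p = 0.0211 and 0.0181). The Twist1 call in PCL@PDA was also lost with library totals (adjusted p = 0.0994), in a fit of the 4 libraries compared (0.0525), with DESeq2 (0.0731) and with limma (0.110 and 0.103), so that it held in 7 of 15 other settings, and that in PVDF@PDA passed in 4.

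Twist2, the close relative of Twist1, was scattered within groups. It had 115 and 85 counts in PVDF@PDA and 72 and 88 counts in PCL@PDA, against 37 and 105 counts in Control, and the groups overlapped. The log2 fold change was 0.53 ± 0.34 SE in PVDF@PDA (adjusted p = 0.332, edgeR) and 0.17 ± 0.35 SE in PCL@PDA (adjusted p = 0.793, edgeR). These values turned on the Control libraries, since the difference for PVDF@PDA was 1.65 within batch 1 and -0.28 within batch 3. Without Control replicate 3 it was 1.42 (adjusted p = 0.0204), and without Control replicate 1 it was -0.01.

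Snai1 encodes Snail, and its highest levels were in PVDF@PDA. It had 130 and 119 counts in PVDF@PDA and 84 and 94 counts in PCL@PDA, against 72 and 84 counts in Control. Both PVDF@PDA libraries lay above the other 4. The log2 fold change in PVDF@PDA was 0.70 ± 0.29 SE and did not pass (adjusted p = 0.0900, edgeR; 0.870 in batch 1 and 0.528 in batch 3), although limma on log2 FPKM called it (adjusted p = 0.0392 with a pseudocount of 1 and 0.0395 with 0.1). In PCL@PDA it was 0.18 ± 0.29 SE (adjusted p = 0.734, edgeR).

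Snai2, which encodes Slug, and Zeb1 did not pass in either comparison. Snai2 had 18.0 and 16.5 CPM in PVDF@PDA and 19.3 and 17.7 CPM in PCL@PDA, against 15.3 and 16.3 CPM in Control. Its log2 fold change was 0.13 ± 0.13 SE in PVDF@PDA (adjusted p = 0.553, edgeR) and 0.23 ± 0.12 SE in PCL@PDA (adjusted p = 0.208, edgeR). Zeb1, the most highly counted of the zinc-finger factors here, had 141 and 152 CPM in PVDF@PDA and 144 and 140 CPM in PCL@PDA, against 145 and 151 CPM in Control. Its log2 fold change was -0.01 in PVDF@PDA (95% interval -0.13 to 0.10) and -0.06 in PCL@PDA (95% interval -0.18 to 0.06). These intervals leave room for a change of at most 0.18 on the log2 scale in either group, whereas those of Twist2 and Snai1 reached beyond 0.7. How reads shared between relatives such as Twist1 and Twist2 were counted is not given in the sources used here.

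Pdgfra moved against Prrx1 and rose in both material groups. It had 899 and 1118 counts in PVDF@PDA and 969 and 985 counts in PCL@PDA, against 655 and 649 counts in Control. In CPM it averaged 30.0 ± 3.78 in PVDF@PDA, 28.4 ± 0.509 in PCL@PDA and 19.1 ± 0.724 in Control (SD, n = 2 each). The groups did not overlap with Control, and PVDF@PDA replicate 3 was the highest library at 32.6 CPM. Pdgfra rose to 1.57-fold of Control in PVDF@PDA (log2 fold change 0.65 ± 0.11 SE, adjusted p = 9.86e-06, edgeR) and to 1.48-fold in PCL@PDA (0.57 ± 0.11 SE, adjusted p = 7.37e-05, edgeR). Within batches 1 and 3 the log2 difference was 0.47 and 0.81 for PVDF@PDA and 0.51 and 0.63 for PCL@PDA, and without PCL@PDA replicate 3 it was 0.55 for PCL@PDA.

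Pdgfrb, the receptor that marks pericytes, was expressed at a low level and rose as well. It had 195 and 239 counts in PVDF@PDA and 225 and 272 counts in PCL@PDA, against 118 and 141 counts in Control. All 4 material libraries lay above both Control libraries. The log2 fold change was 0.77 ± 0.21 SE in PVDF@PDA (adjusted p = 0.00786, edgeR) and 0.93 ± 0.21 SE in PCL@PDA (adjusted p = 0.000796, edgeR). Within batches 1 and 3 it was 0.74 and 0.79 for PVDF@PDA and 0.88 and 0.97 for PCL@PDA. The call in PVDF@PDA was lost without PVDF@PDA replicate 3 (adjusted p = 0.131) or without Control replicate 1 (adjusted p = 0.0931), and the value in PCL@PDA was 0.77 without PCL@PDA replicate 3 (adjusted p = 0.0246).

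Thy1 and Fap, the remaining surface markers, did not follow the PDGF receptors past the threshold. Thy1 had 156 and 162 CPM in PVDF@PDA and 161 and 170 CPM in PCL@PDA, against 147 and 158 CPM in Control. Its log2 fold change was 0.06 in PVDF@PDA (95% interval -0.06 to 0.18, adjusted p = 0.565, edgeR) and 0.12 in PCL@PDA (95% interval 0.00 to 0.24, adjusted p = 0.155, edgeR). Without PCL@PDA replicate 1, or with library totals in place of TMM, the value in PCL@PDA was 0.16 and passed (adjusted p = 0.0388 and 0.0387). Fap had 0 and 5 counts in PVDF@PDA, 4 and 0 counts in PCL@PDA, and 0 and 0 counts in Control. It was removed by the filter on low counts and gets no fold change.

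The opposite movement of Prrx1 and Pdgfra was known when this pair was taken, so their ratio restates the differences above and adds no test. The count ratio of Prrx1 to Pdgfra within a library does not depend on how libraries are scaled. It was 3.52 and 3.06 in PVDF@PDA and 3.24 and 3.09 in PCL@PDA, against 8.24 and 8.91 in Control. All 4 material libraries lay far below both Control libraries, while the PVDF@PDA and PCL@PDA values overlapped.

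Counted over the set, 3 of the 9 genes tested passed for PVDF@PDA against Control, with 2 higher and 1 lower, where 15.7% of all tested genes passed (6.79% higher and 8.9% lower). For PCL@PDA against Control 4 of 9 passed, with 2 higher and 2 lower, where 20.1% of all tested genes passed (8.77% higher and 11.3% lower). Because the genes were chosen with earlier results of these data known, setting their counts beside these shares is no test of the set. Leaving out a library gave 2 to 4 genes for PVDF@PDA and 3 to 5 for PCL@PDA. The 2 genes were left for PVDF@PDA without PVDF@PDA replicate 3 or without Control replicate 1. Over all genes tested, the median log2 fold change was 0.01 in both comparisons.

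**Figure D2:**
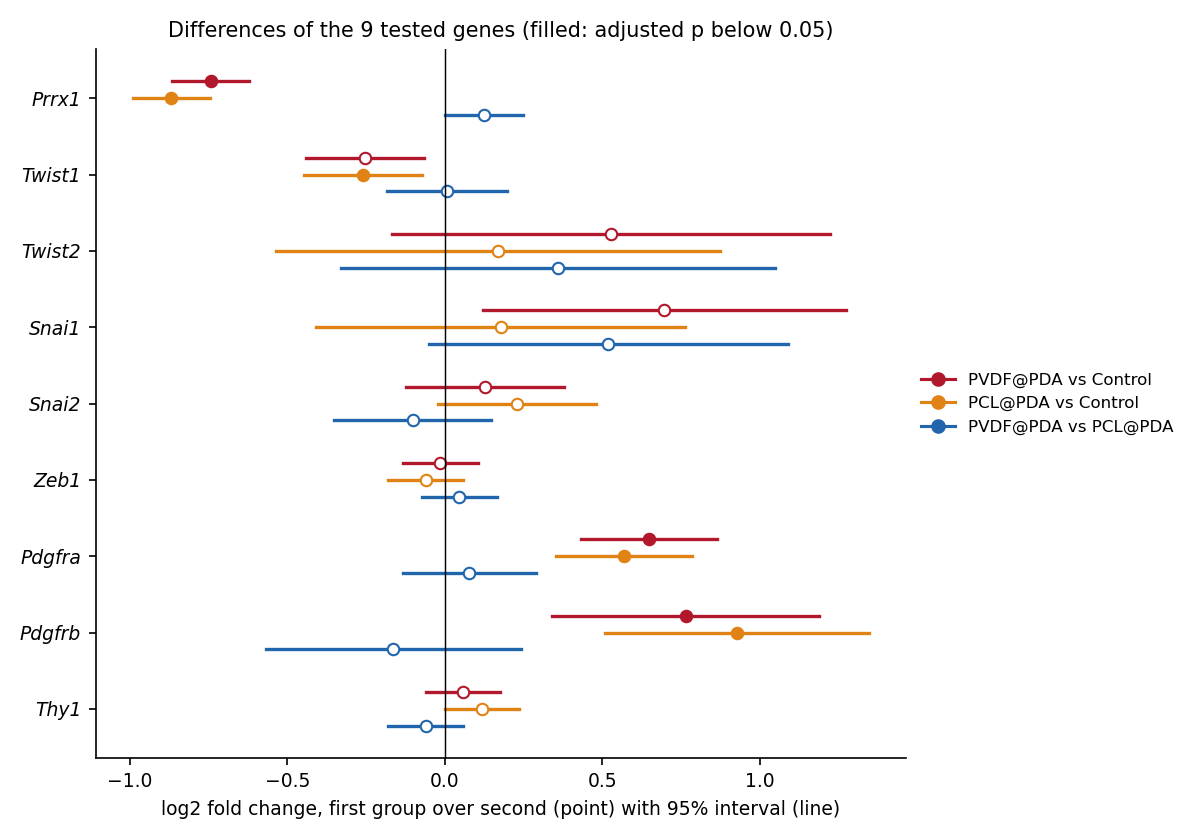
Log2 fold change (horizontal axis) of the 9 genes that passed the filter, for PVDF@PDA against Control, PCL@PDA against Control and PVDF@PDA against PCL@PDA, from edgeR with lines for 95% intervals; filled points have an adjusted p below 0.05. Prrx1 lies left of 0 and Pdgfra and Pdgfrb right of it in both comparisons with Control, and no point of PVDF@PDA against PCL@PDA is filled.

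The direct comparison of the materials asks whether the piezoelectric property goes with a difference in these genes, although PVDF and PCL are also different polymers, and the property and the polymer cannot be told apart. None of the 9 genes passed for PVDF@PDA against PCL@PDA in edgeR, where 0.0615% of all tested genes (8 of 13018) passed, and DESeq2 and limma called none of the 9. At an unadjusted p under 0.05, edgeR and DESeq2 each gave 1 of the 9, Prrx1, and limma gave 1, Snai1, where 8.49% of all tested genes had such a p in edgeR. Prrx1 was 98.0 CPM in PVDF@PDA and 89.8 CPM in PCL@PDA, a log2 fold change of 0.13 with a 95% interval of 0.00 to 0.25 (unadjusted p = 0.0463, adjusted p = 0.573, edgeR). Snai1 was 3.71 CPM in PVDF@PDA and 2.59 CPM in PCL@PDA, a log2 fold change of 0.52 with an interval of -0.05 to 1.09 (adjusted p = 0.625, edgeR). The intervals were -0.13 to 0.29 for Pdgfra, -0.57 to 0.24 for Pdgfrb, -0.18 to 0.20 for Twist1 and -0.33 to 1.05 for Twist2. They were -0.35 to 0.15 for Snai2, -0.07 to 0.16 for Zeb1 and -0.18 to 0.06 for Thy1. For Prrx1, Twist1, Zeb1, Pdgfra and Thy1 the intervals stayed within 0.3 on the log2 scale, whereas those of Twist2, Snai1, Snai2 and Pdgfrb were wider. With the batch as a term, 59 genes of the whole table passed and again none of the 9. The number passing in the whole table ran from 0 to 827 with a library left out, with 827 without PCL@PDA replicate 1, 0 without PVDF@PDA replicate 3, 2 without PCL@PDA replicate 3 and 13 with either Control library left out, and none of the 9 passed in any of these fits.

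**Figure D3:**
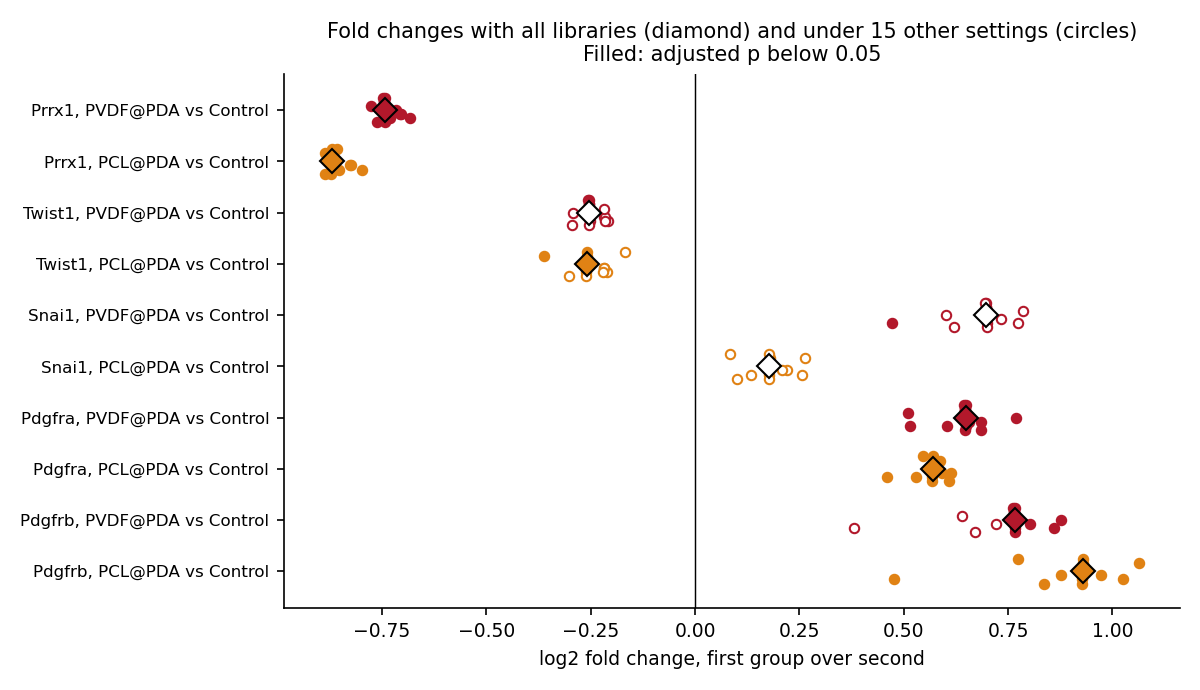
Log2 fold changes against Control (horizontal axis) of Prrx1, Twist1, Snai1, Pdgfra and Pdgfrb, for PVDF@PDA (red) and PCL@PDA (orange), with all 6 libraries (diamonds) and under 15 other settings (circles); filled symbols have an adjusted p below 0.05. Prrx1 and Pdgfra are filled in all 15 settings of both comparisons, whereas Twist1 is filled in 4 of them for PVDF@PDA and 7 for PCL@PDA.

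The PDGF pathway was read through 20 further genes, of which 18 were tested. For PVDF@PDA against Control 1 was higher and 3 were lower, and for PCL@PDA against Control 3 were higher and 5 were lower. Of all tested genes, 15.7% passed for PVDF@PDA and 20.1% for PCL@PDA. The median log2 fold change of the 18 was -0.05 for PVDF@PDA and -0.03 for PCL@PDA. The count for PCL@PDA was 5 with either Control library left out. While both receptor genes were higher, the ligand gene Pdgfc was lower, with 2038 and 2313 counts in PVDF@PDA and 1987 and 2332 counts in PCL@PDA, against 2975 and 3051 counts in Control. Pdgfc, whose product signals through the alpha receptor, fell in PVDF@PDA (log2 fold change -0.45 ± 0.07 SE, adjusted p = 1.03e-05, edgeR) and in PCL@PDA (-0.49 ± 0.07 SE, adjusted p = 1.31e-06, edgeR). Pdgfa, named here after its values were seen, had 1315 and 1222 counts in PVDF@PDA and 1285 and 1119 counts in PCL@PDA, against 1418 and 1638 counts in Control. It fell in PCL@PDA (-0.36 ± 0.09 SE, adjusted p = 0.00302, edgeR; 0.0831 without Control replicate 3, and 0.0760 and 0.0672 with limma) and missed the threshold in PVDF@PDA (-0.24 ± 0.09 SE, adjusted p = 0.0584, edgeR). Pdgfb had at most 4 counts in any library. Pdgfd, also on the list, was not found by that name among the 16849 genes.

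Genes that act downstream of the receptors moved in both directions. The kinase gene Src fell in PVDF@PDA (-0.58 on the log2 scale, adjusted p = 7.87e-07, edgeR) and in PCL@PDA (-0.45, adjusted p = 5.96e-05, edgeR). Rasa1, which encodes a Ras GTPase-activating protein that binds the activated beta receptor, also fell in PVDF@PDA (-0.28, adjusted p = 0.000183, edgeR) and in PCL@PDA (-0.49, adjusted p = 1.91e-09, edgeR). Plcg1, which encodes a phospholipase recruited to the receptors, rose in PVDF@PDA (0.25, adjusted p = 0.00673, edgeR) and in PCL@PDA (0.31, adjusted p = 0.000471, edgeR). Without Control replicate 1 neither Plcg1 call remained (adjusted p = 0.223 for PVDF@PDA and 0.0623 for PCL@PDA), and without PVDF@PDA replicate 3 the PVDF@PDA call was lost (adjusted p = 0.0783). With limma the PVDF@PDA call of Plcg1 was lost too (adjusted p = 0.087 and 0.0779), as was that of Rasa1 with a pseudocount of 1 (adjusted p = 0.051).

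Of 30 other factors, partners and inhibitors of the epithelial-mesenchymal transition (EMT), 22 were tested. None was higher and 4 were lower for PVDF@PDA against Control, where 15.7% of all tested genes passed. For PCL@PDA against Control 2 were higher and 3 were lower, where 20.1% of all tested genes passed. The medians were -0.01 and -0.03 on the log2 scale. The count for PVDF@PDA was 2 with PVDF@PDA replicate 3 or either Control library left out and 7 with either PCL@PDA library left out, and that for PCL@PDA was 9 without PCL@PDA replicate 1. The forkhead factor gene Foxc1 had 528 and 581 counts in PVDF@PDA and 556 and 632 counts in PCL@PDA, against 864 and 851 counts in Control. It fell in PVDF@PDA (-0.61 ± 0.12 SE, adjusted p = 0.00013, edgeR) and in PCL@PDA (-0.54 ± 0.12 SE, adjusted p = 0.000472, edgeR). Tcf4, an E-protein gene whose products pair with Twist factors, fell in PVDF@PDA (-0.33, adjusted p = 0.00422, edgeR) and in PCL@PDA (-0.41, adjusted p = 0.000268, edgeR). The PVDF@PDA call of Tcf4 was lost without PVDF@PDA replicate 1 (adjusted p = 0.106) or Control replicate 3 (adjusted p = 0.0849). With limma neither Tcf4 call remained (adjusted p = 0.119 and 0.122 for PVDF@PDA, 0.06 and 0.0598 for PCL@PDA, with pseudocounts of 1 and 0.1).

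Zeb2 and Prrx2, the relatives of Zeb1 and Prrx1, were named after their values were seen. Zeb2 averaged 73.5 ± 0.685 CPM in PVDF@PDA and 70.0 ± 2.45 CPM in PCL@PDA, against 84.8 ± 2.88 CPM in Control (SD, n = 2 each). It fell in PVDF@PDA (-0.21, adjusted p = 0.0309, edgeR) and in PCL@PDA (-0.28, adjusted p = 0.00236, edgeR). The PVDF@PDA call of Zeb2 was lost without PVDF@PDA replicate 1 (adjusted p = 0.134), PVDF@PDA replicate 3 (0.197), Control replicate 1 (0.263) or Control replicate 3 (0.0679), and the PCL@PDA call was lost without Control replicate 1 (0.0724). It was also lost for PVDF@PDA with library totals (0.079) and with limma (0.125 and 0.125), and held in 8 of 15 other settings. Prrx2 averaged 11.5 ± 2.21 CPM in PVDF@PDA and 13.6 ± 0.107 CPM in PCL@PDA, against 14.7 ± 1.26 CPM in Control, and did not pass (adjusted p = 0.0869 for PVDF@PDA and 0.656 for PCL@PDA, edgeR). For Id1, an inhibitor of E-proteins, the mean was 22.2 CPM in PVDF@PDA, 29.9 CPM in PCL@PDA and 21.6 CPM in Control. Id1 rose in PCL@PDA (0.46, adjusted p = 0.00122, edgeR; 0.0544 without PCL@PDA replicate 3), and its difference between PVDF@PDA and PCL@PDA did not pass (-0.43, adjusted p = 0.188, edgeR). The AP-1 subunit gene Fosl1 rose in PCL@PDA (0.25, adjusted p = 0.000254, edgeR) and had 0.12 in PVDF@PDA (adjusted p = 0.105, edgeR).

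**Figure D4:**
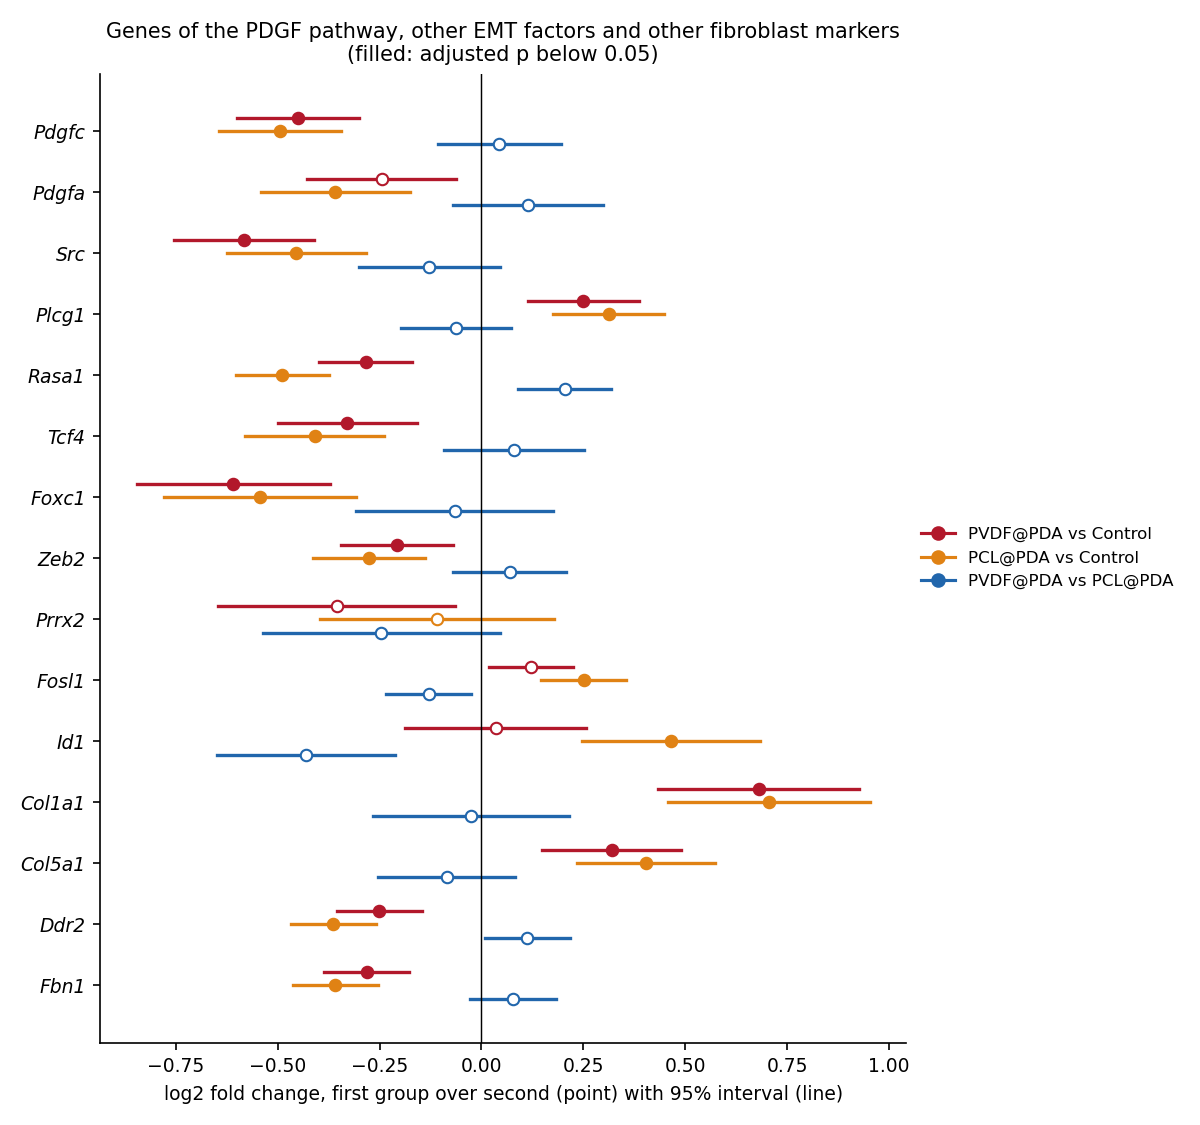
Log2 fold changes (horizontal axis) with 95% intervals for 15 genes of the PDGF pathway, other EMT factors and other fibroblast markers, for PVDF@PDA against Control, PCL@PDA against Control and PVDF@PDA against PCL@PDA; filled points have an adjusted p below 0.05 in edgeR. Pdgfc, Src, Rasa1, Foxc1, Ddr2 and Fbn1 lie left of 0 and Col1a1 and Col5a1 right of it in both comparisons with Control.

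Other fibroblast markers moved in both directions. Of 26 listed, 15 were tested, with 3 higher and 4 lower for PVDF@PDA against Control, where 15.7% of all tested genes passed. For PCL@PDA against Control 4 were higher and 4 lower, where 20.1% of all tested genes passed. The medians were 0.32 and 0.15 on the log2 scale. The count for PCL@PDA was 4 without PVDF@PDA replicate 1 or Control replicate 3 and 5 without PVDF@PDA replicate 3. Col1a1, the alpha-1 chain of collagen I, had 663 and 718 counts in PVDF@PDA and 730 and 710 counts in PCL@PDA, against 445 and 429 counts in Control. It rose in PVDF@PDA (0.68 ± 0.12 SE, adjusted p = 4.01e-05, edgeR) and in PCL@PDA (0.71 ± 0.12 SE, adjusted p = 1.77e-05, edgeR). Col1a2, the other chain of collagen I and the more highly counted, was named after its values were seen. It averaged 608 ± 5.34 CPM in PVDF@PDA and 609 ± 9.99 CPM in PCL@PDA, against 673 ± 2.21 CPM in Control (SD, n = 2 each), and fell in PVDF@PDA (-0.15, adjusted p = 0.0347, edgeR) and in PCL@PDA (-0.14, adjusted p = 0.0314, edgeR). These small differences of Col1a2 kept their direction in all 15 other settings but passed in only 8 for PVDF@PDA and 7 for PCL@PDA. Neither call remained without PVDF@PDA replicate 1 (adjusted p = 0.247 for PVDF@PDA and 0.0690 for PCL@PDA), PVDF@PDA replicate 3 (0.1825 and 0.06985), Control replicate 1 (0.209 and 0.203) or Control replicate 3 (0.149 and 0.136), nor with library totals (0.0934 and 0.114) or limma (at least 0.158 and 0.168), and that for PCL@PDA was lost in a fit of the 4 libraries compared (0.0724). Col5a1, a chain of collagen V, rose in PVDF@PDA (0.32, adjusted p = 0.00564, edgeR) and in PCL@PDA (0.40, adjusted p = 0.000311, edgeR), and the PVDF@PDA call was lost without PVDF@PDA replicate 3 (adjusted p = 0.284) or Control replicate 1 (adjusted p = 0.0935), and with limma (adjusted p = 0.101 and 0.0914). The collagen receptor gene Ddr2 fell in PVDF@PDA (-0.25, adjusted p = 0.000344, edgeR) and in PCL@PDA (-0.36, adjusted p = 3.66e-07, edgeR). Fbn1, which encodes the microfibril protein fibrillin-1, fell in PVDF@PDA (-0.28, adjusted p = 5.45e-05, edgeR) and in PCL@PDA (-0.36, adjusted p = 4.25e-07, edgeR).

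Mesenchymal adhesion and cytoskeleton genes gave 3 higher and 2 lower of 15 tested for PVDF@PDA against Control, and 2 higher and 0 lower for PCL@PDA against Control. Of all tested genes, 15.7% passed for PVDF@PDA and 20.1% for PCL@PDA. With the batch as a term, 4 passed for PCL@PDA. The count for PVDF@PDA was 1 without PVDF@PDA replicate 3 and 3 with PVDF@PDA replicate 1 or either Control library left out, and that for PCL@PDA was 1 without PCL@PDA replicate 3 and 0 without Control replicate 1. Ncam1, a neural adhesion molecule gene, rose in PVDF@PDA (0.37, adjusted p = 8.1e-06, edgeR) and in PCL@PDA (0.25, adjusted p = 0.00201, edgeR; 0.151 without Control replicate 1). Vim, which encodes the intermediate filament protein vimentin, averaged 1074 ± 28.4 CPM in PVDF@PDA and 1161 ± 17.8 CPM in PCL@PDA, against 1224 ± 34.3 CPM in Control (SD, n = 2 each). Vim fell in PVDF@PDA (-0.19, adjusted p = 0.0038, edgeR), a call lost without PVDF@PDA replicate 3 (adjusted p = 0.140) or Control replicate 3 (adjusted p = 0.0996), and with limma (adjusted p = 0.0752 and 0.0675).

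Epithelial junction and keratin genes, the textbook targets of Snail and Zeb repression, gave 1 higher and 1 lower of 10 tested for PVDF@PDA against Control, and 3 higher and 1 lower for PCL@PDA against Control. Their canonical target Cdh1, the gene of E-cadherin, had at most 6 counts in any library and was not tested. For every list count of this paragraph, the share of all tested genes that passed was 15.7% for PVDF@PDA and 20.1% for PCL@PDA. Of the pericyte and mural cell markers, 5 were tested, with 2 higher for PVDF@PDA against Control, 1 higher for PCL@PDA against Control and none lower in either. The pericyte markers Rgs5, Kcnj8 and Abcc9 were not found by name, and Notch3 had at most 1 count in any library. Cnn1, called for PVDF@PDA, was near the floor, with 17 and 10 counts there against 0 and 1 in Control. Its call was lost with no filter on low counts (adjusted p = 0.0750, edgeR). The adhesion molecule gene Mcam averaged 23.6 ± 1.62 CPM in PVDF@PDA and 25.1 ± 1.68 CPM in PCL@PDA, against 16.8 ± 2.17 CPM in Control (SD, n = 2 each). Mcam rose in PVDF@PDA (0.49, adjusted p = 0.00192, edgeR; 0.0643 without PVDF@PDA replicate 3 and 0.109 without Control replicate 1) and in PCL@PDA (0.58, adjusted p = 0.000173, edgeR). The summed level of the 9 measured pericyte and mural markers was 81.7 to 82.8 CPM in PVDF@PDA and 80.1 to 93.4 CPM in PCL@PDA, against 70.2 to 85.5 CPM in Control, so that, unlike Pdgfrb, it overlapped between the material groups and Control. Much of this sum was Cspg4, at 44.9 and 42.5 CPM in PVDF@PDA, 42.0 and 54.0 CPM in PCL@PDA, and 42.6 and 51.9 CPM in Control. Of 13 Schwann cell markers tested, 3 were higher and 3 lower for PVDF@PDA, and 4 were higher and 1 lower for PCL@PDA, each against Control. None of 5 macrophage markers tested passed against Control in edgeR or DESeq2, with 2 at an unadjusted p under 0.05 for PVDF@PDA and 1 for PCL@PDA. Their median log2 fold change was nonetheless 0.95 for PVDF@PDA and 1.03 for PCL@PDA. In both comparisons the values of Coro1a, Lyz2, Cd68 and Csf1r, all at low counts, were above 0, and that of Cd14 was below 0. With limma 1 macrophage marker passed in each comparison, and with the batch as a term 1 passed for PVDF@PDA. Of 5 endothelial markers, 1 was higher and 1 lower for PCL@PDA. With a library left out, no more than 2 epithelial genes passed for PVDF@PDA (none without PVDF@PDA replicate 3), and 1 and 2 passed for PCL@PDA without Control replicate 1 and replicate 3. Without PVDF@PDA replicate 3 or Control replicate 1 no pericyte marker passed for PVDF@PDA, and without PVDF@PDA replicate 3 only 2 Schwann markers did.

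For PVDF@PDA against PCL@PDA, none of the 108 genes tested over the 9 lists passed in edgeR, DESeq2 or limma, and 14 had an unadjusted p under 0.05 in edgeR. Of all tested genes, 0.0615% passed and 8.49% had such an unadjusted p in edgeR. With the batch as a term, 1 gene of the PDGF list and 1 EMT factor passed. Without PCL@PDA replicate 1, 2 genes of the PDGF list, 3 EMT factors, 1 mesenchymal gene and 1 pericyte marker passed.

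The patterns most like those of Prrx1 and Pdgfra were sought among 10374 genes by Pearson's r of log2 CPM over the 6 libraries, as a description of libraries that fall into Control and material groups. For Prrx1 the most similar were the cytokine gene Lif (r = 0.999), the interleukin 1 receptor antagonist gene Il1rn (r = 0.999) and Ankrd28 (r = 0.998). Lif had 65.9 and 69.7 CPM in PVDF@PDA and 62.4 and 61.2 CPM in PCL@PDA, against 104 and 106 CPM in Control. For Pdgfra the most similar were Rnf145 (r = 0.998), Tom1l1 (r = 0.993) and Kctd17 (r = 0.991). An r of at least 0.95 was reached by 480 genes with Prrx1 and by 156 with Pdgfra.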

How the data were processed

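RNA from 6 libraries of RSC96 cells was analysed: 2 each of PVDF@PDA, PCL@PDA and Control, grouped by their titles (titles were used because the free text of PCL@PDA samples names PVDF@PDA). Total RNA was extracted on columns with DNase digestion, per the labels' protocols. The authors deposited raw counts per gene in a table of 16849 genes and FPKM values in a file for each library; on 15690 genes FPKM was proportional to count over length within 1e-05. Per the submitters' processing notes, DESeq2 1.4.5 and the genome build mRatBN7.2 were used in a role that is not stated. The sources used here do not give the aligner, counter, annotation or strand setting.

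Counts were tested with edgeR 4.0.16 in R 4.3.3 (TMM scaling, filterByExpr, robust quasi-likelihood F test, 2-sided) in a fit over all 6 libraries, with Benjamini-Hochberg adjustment over the 13018 genes tested and a threshold of 0.05. The biological coefficient of variation was 6.47%, with 3 residual degrees of freedom. A median of 50.27 prior degrees of freedom was borrowed across genes, so p-values and intervals do not rest on each gene's own libraries alone. The labels do not say that libraries came from separate cultures, so p-values measure only the spread between these libraries, which may be technical. Intervals cover 95%, and intervals and floors of 3 counts cover counting error and library spread as modelled. The number of a library marks a batch in the labels; deviations of same-numbered libraries from their group means correlated at -0.02, 0.04 and 0.13, and the batch was added as a block in an alternative fit. The 15 alternatives were other scalings (RLE, library totals), no filter, the block, the 4 libraries compared, a non-robust fit, DESeq2 1.42.0, limma 3.58.1 on log2(FPKM + 1) and log2(FPKM + 0.1), and each library left out. Members and the 9 gene lists were chosen with earlier results of these data known. Of each list at most 4 genes were eligible to be named, those of smallest p among those passing in any comparison; Pdgfa, Zeb2, Prrx2 and Col1a2, and low or absent markers given as counts, were named after their values were seen. For Prrx1 and Pdgfra the 3 genes of highest r were named. Sequences are RefSeq promoters (GRCr8), searched on both strands. The method was also run on simulated data, and the outcome is not given here.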

Additional observations from a re-analysis of the deposited data

How the results depend on the processing

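Over 15 alternatives, the 27 member differences gave 405 values, of which 373 kept direction and side of the threshold, 12 lost a call, 9 gained one and 11 changed sign. The log2 value of Prrx1 stayed between -0.78 and -0.68 for PVDF@PDA and between -0.89 and -0.80 for PCL@PDA, and that of Pdgfra between 0.51 and 0.77 and between 0.46 and 0.61, with every call against Control kept. The batch as a replicate block gained the PVDF@PDA call of Twist1 (adjusted p = 0.0333) and changed no other call among the 10 genes. All sign changes were of small or scattered values that had not passed. Against Control without Control replicate 1, Twist2 was -0.015 in PVDF@PDA and -0.37 in PCL@PDA, and without Control replicate 3 it was 1.42 and 1.06. Zeb1 in PVDF@PDA was 0.0214 with library totals, 0.0195 and 0.0206 with limma (pseudocounts 1 and 0.1), 0.0320 without PVDF@PDA replicate 1 and 0.0061 without Control replicate 3, and -0.068 without PVDF@PDA replicate 3. For PVDF@PDA against PCL@PDA, Twist1 ran from -0.088 (without PCL@PDA replicate 3) to 0.11 (without PCL@PDA replicate 1), with -0.03 without PVDF@PDA replicate 1. Zeb1 ran from -0.0073 (without PVDF@PDA replicate 3) to 0.0926 (without PVDF@PDA replicate 1), and Pdgfra from -0.059 to 0.20 without the same libraries. The cause was not tested. Pdgfrb in PVDF@PDA lost its call with limma (adjusted p = 0.0682 and 0.0667).

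Of all genes, limma called 859 and 986 for PVDF@PDA against Control and 1304 and 1413 for PCL@PDA against Control, against 2042 and 2616 in edgeR. For PVDF@PDA against PCL@PDA, where edgeR called 8, library totals gave 5, no filter 17, the replicate block 59, DESeq2 5 and limma 0 and 0. Library totals turned the split to 1164 higher and 879 lower for PVDF@PDA against Control and 1482 higher and 1070 lower for PCL@PDA against Control, against 884 and 1158, and 1142 and 1474, with TMM. With a library left out, the calls ran from 1031 to 2869 for PVDF@PDA against Control (1184 and 1031 without PVDF@PDA replicates 1 and 3, 1085 and 1267 without Control replicates 1 and 3), from 1346 (without Control replicate 1) to 3173 for PCL@PDA against Control and from 0 to 827 for PVDF@PDA against PCL@PDA. The arm left with 1 library is then assumed to vary like the other groups.

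List counts moved as follows. With limma (both pseudocounts unless stated), for PVDF@PDA against Control the PDGF list gave 2 (pseudocount 1), the EMT factors 1 and 1, the mesenchymal genes 1 and 1, the Schwann markers 3 and 3 and the macrophage markers 1 and 1; for PCL@PDA against Control the PDGF list gave 4 and 4, the epithelial genes 2 and 2, the mesenchymal genes 1 and 1, the fibroblast markers 5 and 5, the Schwann markers 3 and 3, the macrophage markers 1 and 1 and the endothelial markers 1 and 1. The replicate block gave 1 PDGF gene and 1 EMT factor for PVDF@PDA against PCL@PDA, 4 mesenchymal genes for PCL@PDA against Control and 1 macrophage marker for PVDF@PDA against Control. DESeq2 gave 1 epithelial gene and 1 pericyte marker for PVDF@PDA against Control and 1 endothelial marker for PCL@PDA against Control. No filter gave 1 pericyte and 1 macrophage marker for PVDF@PDA against Control. The 4 libraries alone gave 4 fibroblast markers for PCL@PDA and 1 macrophage marker for PVDF@PDA, each against Control. With a library left out, list counts for PVDF@PDA against Control were 2 to 7 EMT factors, 0 to 2 epithelial genes, 1 to 7 mesenchymal genes, 0 to 2 pericyte, 2 to 6 Schwann and 0 to 1 macrophage markers. For PCL@PDA against Control they were 5 to 9 PDGF genes, 4 to 9 EMT factors, 1 to 4 epithelial genes, 0 to 3 mesenchymal genes, 4 to 6 fibroblast, 3 to 6 Schwann, 0 to 1 macrophage and 0 to 2 endothelial markers. For PVDF@PDA against PCL@PDA they were 0 to 2 PDGF genes, 0 to 3 EMT factors, 0 to 1 mesenchymal genes and 0 to 1 pericyte markers.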
